A study of Mus musculus with 220 samples.

Results

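Hepatic gene expression was compared between Ath-HMDP mice with a NOD/ShiLtJ mother and mice with a NON/ShiLtJ mother. The mice were chosen by the strain label alone, which gave 2 mice for each strain, 4 of the 220 mice and 2 of the 96 strains in the panel. All 4 were females and were F1 hybrids between the named strain and C57BL/6J. Their C57BL/6J fathers were bred to be heterozygous for human APOE-Leiden and homozygous for human CETP. The offspring were genotyped, and F1 mice with both transgenes were selected. Both transgenes and a C57BL/6J genome copy were thus common to every mouse, whichever its strain, and a maternal allele was present in 1 copy only. Chow was given until 8 weeks of age, Western diet during the next 16 weeks, and livers were taken at 24 weeks. The RNA of each liver was hybridised to 1 array, and values are log2 signals, in which each unit is a factor of 2.

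NOD/ShiLtJ is the strain in which autoimmune diabetes arises without treatment, through T cells that destroy the insulin-producing cells of the pancreas, and its major histocompatibility complex is the strongest of many inherited contributions. NON/ShiLtJ is a related strain that does not become diabetic, and both were bred from the same outbred Swiss stock. The liver is no target of that autoimmunity, but it makes glucose and lipoproteins, answers insulin and interferon, and holds a large population of resident macrophages.

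The hepatocyte markers were at the same level in all 4 livers, with a list mean between 12.80 and 12.82, and 0 of the markers of pancreatic acinar cells, muscle and erythroid cells were called in limma (2, 0 and 0 at an unadjusted p under 0.05). The strain mates correlated at 0.992 (NOD/ShiLtJ) and 0.994 (NON/ShiLtJ) over all probe sets, where the median over 162 pairs of strain mates in the panel was 0.994, and mice of different strains correlated at 0.983 to 0.991. NOD/ShiLtJ mouse 1 stood apart: its mean correlation with all mice was 0.983, the 4th lowest of the 220, against 0.988 for its mate and a panel median of 0.990. The labels number the NOD/ShiLtJ mice 1 and 2 and the NON/ShiLtJ mice 37 and 779, and give no litter, cage, collection day or scan date. What mates shared in these respects cannot be told apart from the strain, and p-values measure only the spread between mice of the same strain.

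With the spread within strains taken from the 87 strains that had replicate mice, 952 of 17097 genes differed between NOD/ShiLtJ and NON/ShiLtJ at an adjusted p under 0.05 in limma, or 5.57% of the genes tested. Of these, 412 (2.41%) were higher and 540 (3.16%) were lower in NOD/ShiLtJ. The median size of a called difference was 0.71, and 266 genes differed by 1 or more, 85 of them higher and 181 lower in NOD/ShiLtJ. Both mice of one strain lay above both mice of the other in 948 of the 952 called genes, and in 45.4% of all genes. The difference over all genes had a median of 0.00.

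The number of calls depended on which mice were present. On the scale of probe sets, 1657 were called with all 4 mice. Without NOD/ShiLtJ mouse 1 the count was 208, without NOD/ShiLtJ mouse 2 it was 2202, without NON/ShiLtJ mouse 1 it was 882, and without NON/ShiLtJ mouse 2 it was 273. All 952 called genes kept their direction with each mouse left out. In the 948 of them whose mice did not overlap, leaving out 1 mouse cannot reverse it. A group of 69 genes was called with all mice and again with each mouse left out, 44 higher and 25 lower in NOD/ShiLtJ, and 15 of these differed by 2 or more.

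**Figure D1:**
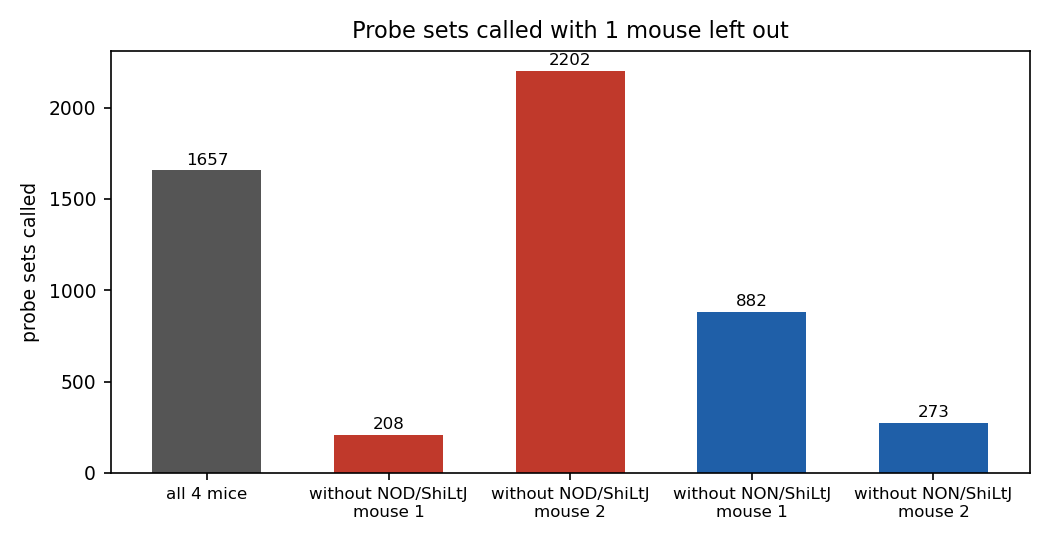
Number of probe sets called between NOD/ShiLtJ and NON/ShiLtJ (vertical axis) with all 4 mice (grey) and with a NOD/ShiLtJ mouse (red) or a NON/ShiLtJ mouse (blue) left out. The count is 1657 with all mice and lies between 208 and 2202 when 1 mouse is missing, and it is lowest without NOD/ShiLtJ mouse 1.

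H2-Ea, Gdpd3 and Ifi44l, all among the 69, were near the bottom of the scale in NOD/ShiLtJ and far above it in NON/ShiLtJ. H2-Ea encodes the alpha chain of the class II molecule E, which presents peptides to T cells and which NOD and C57BL/6 mice are known not to make. Its signal was 4.39 and 3.29 in the NOD/ShiLtJ mice and 10.04 and 10.33 in the NON/ShiLtJ mice. The difference was -6.34 ± 0.62 (SE, adjusted p = 9.66e-15), and the mean in C57BL/6J was 2.80. Gdpd3, a lysophospholipase D, read 3.82 and 3.69 against 8.44 and 8.94. Its difference of -4.93 ± 0.21 had the smallest adjusted p of any gene (2.86e-44). Ifi44l, an interferon-inducible gene, read 3.03 in each NOD/ShiLtJ mouse against 6.83 and 7.21 in NON/ShiLtJ, a difference of -3.99 ± 0.26 (adjusted p = 1.58e-26), and C57BL/6J had a mean of 2.85. Mates lay close together in Gdpd3 and Ifi44l and further apart in the NOD/ShiLtJ mice for H2-Ea, and in all of these genes the groups were separated by more than 3 log2 units. H2-Ea has 3 probe sets, and the difference was -3.74 on their mean.

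Several of the others encode enzymes. Gstp3, a glutathione transferase of the pi class, was at 8.69 and 7.80 in NOD/ShiLtJ and at 11.30 and 11.28 in NON/ShiLtJ (adjusted p = 6.46e-19). Akr1e1, an aldo-keto reductase, was at 5.29 and 5.57 against 7.47 and 7.33 (adjusted p = 1.5e-19), and NOD/ShiLtJ had the lowest mean of the 29 classical inbred strains. In the other direction, the sulfotransferase Sult3a1 was at 9.82 and 9.0 in NOD/ShiLtJ and at 3.94 and 2.66 in NON/ShiLtJ, a difference of 6.12 ± 0.97 (adjusted p = 3.96e-06). Cyp46a1, a cytochrome P450 that hydroxylates cholesterol and is best known from neurons, was at 8.42 and 8.23 against 4.95 and 4.31 (adjusted p = 9.88e-09). Both NOD/ShiLtJ mice lay above every strain mean of the 25 other classical strains, of which the highest was 7.5. Abhd1, a hydrolase of the alpha/beta fold, was at 7.79 and 7.26 against 3.74 and 4.03, a difference of 3.64 ± 0.28 (adjusted p = 9.21e-22).

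Hsd3b5, a 3-ketosteroid reductase whose hepatic expression is typical of males, was at 6.13 and 5.42 in the NOD/ShiLtJ females and at 2.75 and 2.71 in the NON/ShiLtJ females (adjusted p = 3.43e-10). No other classical strain reached the NOD/ShiLtJ level: their mean was 2.78 and the highest strain mean 3.79. Hsd3b3 (1.08) and Hsd3b6 (1.05), on the same chromosome, were also called higher in NOD/ShiLtJ. Short probes may not separate members of this family. Hyi, a putative hydroxypyruvate isomerase, was at 8.03 and 7.95 against 6.09 and 5.93 (adjusted p = 7.83e-11), so that NOD/ShiLtJ had the highest and NON/ShiLtJ the lowest mean of the 29 strains. Psen2, a catalytic subunit of gamma-secretase, was at 11.17 and 10.94 against 9.97 and 9.84 (adjusted p = 3.01e-12), and Psmc3ip, a cofactor of meiotic recombination, was at 5.14 and 4.94 against 3.52 and 3.38 (adjusted p = 7.09e-13). The eosinophil chemokine Ccl24 was at 5.85 and 6.56 against 3.89 and 4.0 (adjusted p = 0.000434). In Hsd3b5, Hyi, Psen2, Psmc3ip and Ccl24 the groups did not overlap, and each call held with any mouse left out.

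**Figure D2:**
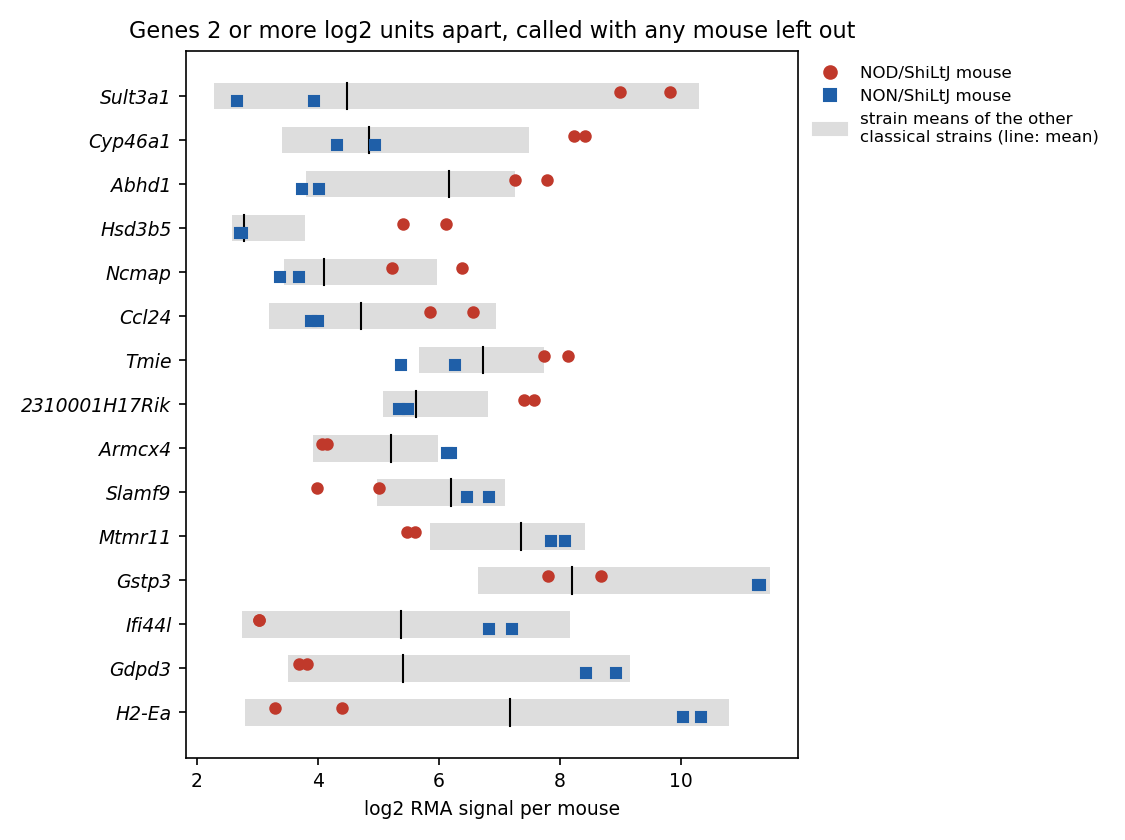
Log2 RMA signal (horizontal axis) of the 15 genes that differed by 2 or more and were called with all mice and with each mouse left out, for each NOD/ShiLtJ mouse (red circles) and NON/ShiLtJ mouse (blue squares). Grey bars span the strain means of the 25 other classical inbred strains and black lines mark their mean. The circles and squares do not overlap in any gene, and the Hsd3b5 circles, at 6.13 and 5.42, lie beyond the highest other strain mean of 3.79.

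Other genes among the largest differences were called with all 4 mice but not with every mouse left out. Higher in NOD/ShiLtJ were the enoyl-CoA isomerase Eci3 (2.93), the melanin enzyme Dct (2.82), the acid phosphatase Acpp (2.81) and the organic anion transporter Slc22a26 (2.72). Eci3 differed between the NOD/ShiLtJ mates themselves, at 8.06 in mouse 1 and 5.26 in mouse 2. Lower in NOD/ShiLtJ were the fatty acid elongase Elovl7 (-3.16), the tetraspanin Tspan8 (-3.09), the oxysterol-binding protein Osbpl3 (-3.01), the cornified envelope protein Sprr1a (-2.96), the aspartic protease Ctse (-2.95), the ubiquitin-like protein Ubd (-2.93), the protease inhibitor Slpi (-2.80), the collectin Sftpd (-2.55) and the stress-induced regulator Nupr1 (-2.51). Ubd also differed between the NOD/ShiLtJ mates, at 4.74 and 6.55, and NON/ShiLtJ had 8.51 and 8.63. On the mean of all probe sets of a gene the difference was smaller in Elovl7 (-1.35), Tspan8 (-1.41), Osbpl3 (-1.87) and Acpp (1.46). Without the mouse that mattered most, the adjusted p of these genes rose to between 0.0639 (Osbpl3) and 0.598 (Eci3).

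Genes of the immune system were examined next, because diabetes in NOD mice is immune in origin. The counts of this and the following lists stand beside 2.41% of all genes called higher, 3.16% called lower and a median difference of 0.00. Of 27 measured genes proposed as candidates in the Idd regions, which carry inherited diabetes risk in NOD mice, 1 was called. This gene was Ifih1, a cytoplasmic sensor of viral RNA, at 7.77 and 7.69 in NOD/ShiLtJ and 8.38 and 8.47 in NON/ShiLtJ, a difference of -0.69 ± 0.17 (adjusted p = 0.00811). The call was lost without NOD/ShiLtJ mouse 1 and without NON/ShiLtJ mouse 2, with an adjusted p of up to 0.136. The median difference of the candidates was -0.07. Slc11a1, a metal transporter of macrophage phagosomes, read 7.31 and 7.52 against 7.64 and 8.06 (adjusted p = 0.342), and Sirpa, an inhibitory receptor of myeloid cells, read 8.27 and 8.2 against 8.72 and 9.05 (adjusted p = 0.109). Ctla4, an inhibitory receptor of T cells, was low in all livers, at 3.15 and 2.84 against 2.71 and 2.87. Hc, which encodes complement C5, a protein that NOD mice are known to lack, read 11.18 and 11.28 against 11.26 and 11.33 (adjusted p = 0.822).

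Among interferon-response genes, which defend cells against viruses, 7 of 37 measured members were called lower in NOD/ShiLtJ and 0 higher. The 7 include Ifih1, already named among the Idd candidates. Of the 37 differences, 34 were below 0, and the median difference was -0.54. Usp18, which removes the ubiquitin-like ISG15 from proteins, was at 7.13 and 6.83 against 8.16 and 8.34 (adjusted p = 0.001). Oasl2, of the oligoadenylate synthetase family, was at 4.73 and 4.97 against 6.01 and 6.21, Oasl1 at 6.27 and 5.58 against 6.95 and 7.04, and Oas1g at 8.36 and 7.41 against 8.88 and 8.94. Stat2, which carries the type I interferon signal to the nucleus, was at 5.42 and 5.62 against 6.44 and 6.30 (adjusted p = 0.0197). With a mouse left out, between 1 and 5 members were called, and the median lay between -0.74 and -0.43. Of 6 measured genes of the Ifi200 family, which sense DNA, 3 were called lower: Ifi202b (-1.95), Ifi204 (-1.12) and Ifi209 (-0.98). None of the 3 was called when NOD/ShiLtJ mouse 1 or either NON/ShiLtJ mouse was left out, and short probes may not separate members of this family or of the Oas and H2 families. Of 12 interferon-inducible GTPases, 0 were called by limma and 0 had an unadjusted p under 0.05, with a median of -0.23.

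Many interferon-inducible promoters carry the interferon-stimulated response element, of which the core searched for here is GAAA, any 2 bases and GAAA, on either strand. Within 250 bases upstream of the gene start, 3.09% of 13605 measured genes with a promoter sequence held this core, as did 8 of 26 interferon-list genes and 2 of the 6 called ones with a sequence, Oas1g and Stat2. The matches are shown in capitals with their surroundings, 5′ to 3′ on the strand of the gene, from RefSeq sequence of GRCm38.p6; Oas1g lies on the minus strand at chr5:120887614-120887651 and Stat2 on the plus strand at chr10:128270256-128270305.
Oas1g: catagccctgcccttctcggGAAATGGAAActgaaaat
Stat2: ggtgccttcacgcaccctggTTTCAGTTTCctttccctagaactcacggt
In Oas1g a further copy of the core overlaps the one in capitals, and in Stat2 the core is read from the opposite strand.

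Antigen presentation genes beyond H2-Ea were next. Of 13 class II genes, H2-Ea and the lysosomal protease Ctss were called lower. Ctss was at 10.66 and 10.85 against 11.35 and 11.77 (adjusted p = 0.00339). Its difference was between -1.02 and -0.60 with a mouse left out, and its call was lost without NOD/ShiLtJ mouse 1 and without NON/ShiLtJ mouse 2. The median of the list was -0.32, or -0.13 without NOD/ShiLtJ mouse 1 and -0.70 without NOD/ShiLtJ mouse 2. Of 20 class I and processing genes, 0 were called (median -0.05) and 1 had an unadjusted p under 0.05. Markers of lymphocytes passed no test: 0 of 26 for T and NK cells (median 0.16, 3 at an unadjusted p under 0.05) and 0 of 14 for B and plasma cells (median 0.06, 2 at that p). The largest T-cell difference was that of Zap70, a kinase of the T cell receptor, at 6.99 and 6.98 against 5.94 and 6.11 (adjusted p = 0.058). The T-cell list mean was 3.61 and 4.01 in NOD/ShiLtJ and 3.6 and 3.66 in NON/ShiLtJ.

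Macrophages, including the resident Kupffer cells, clear particles and dying cells from the blood. Of 32 measured markers of macrophages and Kupffer cells, 3 were called lower and 0 higher, 25 were below 0 and 7 above, and the median was -0.36. The list mixes macrophages in general with Kupffer cells, and the calls were Cd14, Ccr2 and Cd9 alone. Cd14, a co-receptor for lipopolysaccharide, was at 7.31 and 7.70 in NOD/ShiLtJ and 8.76 and 9.84 in NON/ShiLtJ, and Ccr2, the receptor that brings monocytes into tissue, was at 4.58 and 4.97 against 6.06 and 6.14 (adjusted p = 0.00147, with a difference of -1.33 that was -0.67 on the mean of its probe sets). The tetraspanin Cd9 was at 9.22 and 8.94 against 9.78 and 10.01. No marker of this list was called without NOD/ShiLtJ mouse 1 or without NON/ShiLtJ mouse 2. In whole liver, fewer cells of a type and less RNA per cell cannot be told apart. Of 11 neutrophil genes, 0 were called (median -0.36, 2 at an unadjusted p under 0.05), and of 18 endothelial genes, 0 were called (median 0.00, 1 at that p).

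Stellate cells are the main source of matrix in a damaged liver. Of 26 measured genes of stellate cells and matrix, 8 were called lower in NOD/ShiLtJ and 0 higher, 25 differences were below 0 and the median was -0.56. The fibrillar collagen Col3a1 was at 10.01 and 10.54 against 11.22 and 11.44, the basement membrane collagen Col4a1 at 8.24 and 8.55 against 9.24 and 9.46, and Col6a1 at 5.52 and 5.91 against 6.87 and 6.87. Timp1, an inhibitor of matrix proteases, was at 5.12 and 5.81 against 6.70 and 7.42. The macrophage elastase Mmp12 was at 7.43 and 8.83 against 9.49 and 10.50 (adjusted p = 0.00501), and the collagenase Mmp13 was at 2.85 and 3.69 against 4.82 and 5.62. The 2 remaining calls were Col4a2 (-0.95) and the proteoglycan Dcn (-0.35). With NOD/ShiLtJ mouse 1 left out, 0 of the list were called and the median was -0.38. The count was also 0 without NON/ShiLtJ mouse 2 (median -0.43), it was 1 without NON/ShiLtJ mouse 1 and 7 without NOD/ShiLtJ mouse 2.

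Ductular cells line the bile ducts and multiply in liver injury. Of 13 measured genes of cholangiocytes and ductular cells, 4 were called lower and 0 higher, 12 were below 0 and the median was -0.71. Epcam, an adhesion molecule of bile duct epithelium, was at 4.65 and 5.09 against 6.92 and 7.27 (adjusted p = 0.0189). The keratins Krt8 and Krt18, which hepatocytes also make, were at 10.45 and 10.57 against 11.34 and 11.49 and at 10.78 and 10.80 against 11.48 and 11.61. Anxa4, a calcium-dependent membrane-binding protein, was at 9.30 and 9.52 against 9.97 and 10.26 (adjusted p = 0.00119). On the mean of their probe sets, Epcam went from -2.22 to -1.19 and Anxa4 from -0.71 to -0.32, where its call was lost. The count was also 4 without NOD/ShiLtJ mouse 2, and it was 0 without NOD/ShiLtJ mouse 1 or NON/ShiLtJ mouse 2, where the median was -0.78 and -0.68. Of 23 acute phase genes, 3 were called lower (median -0.12): the siderophore-binding Lcn2, at 9.56 and 10.34 against 11.26 and 11.68, the metalloreductase Steap4 (-1.05) and haptoglobin, Hp (-0.31). The acute phase list had 0 calls without NOD/ShiLtJ mouse 1 (median -0.03) or NON/ShiLtJ mouse 2, and 4 without NOD/ShiLtJ mouse 2 (median -0.24).

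**Figure D3:**
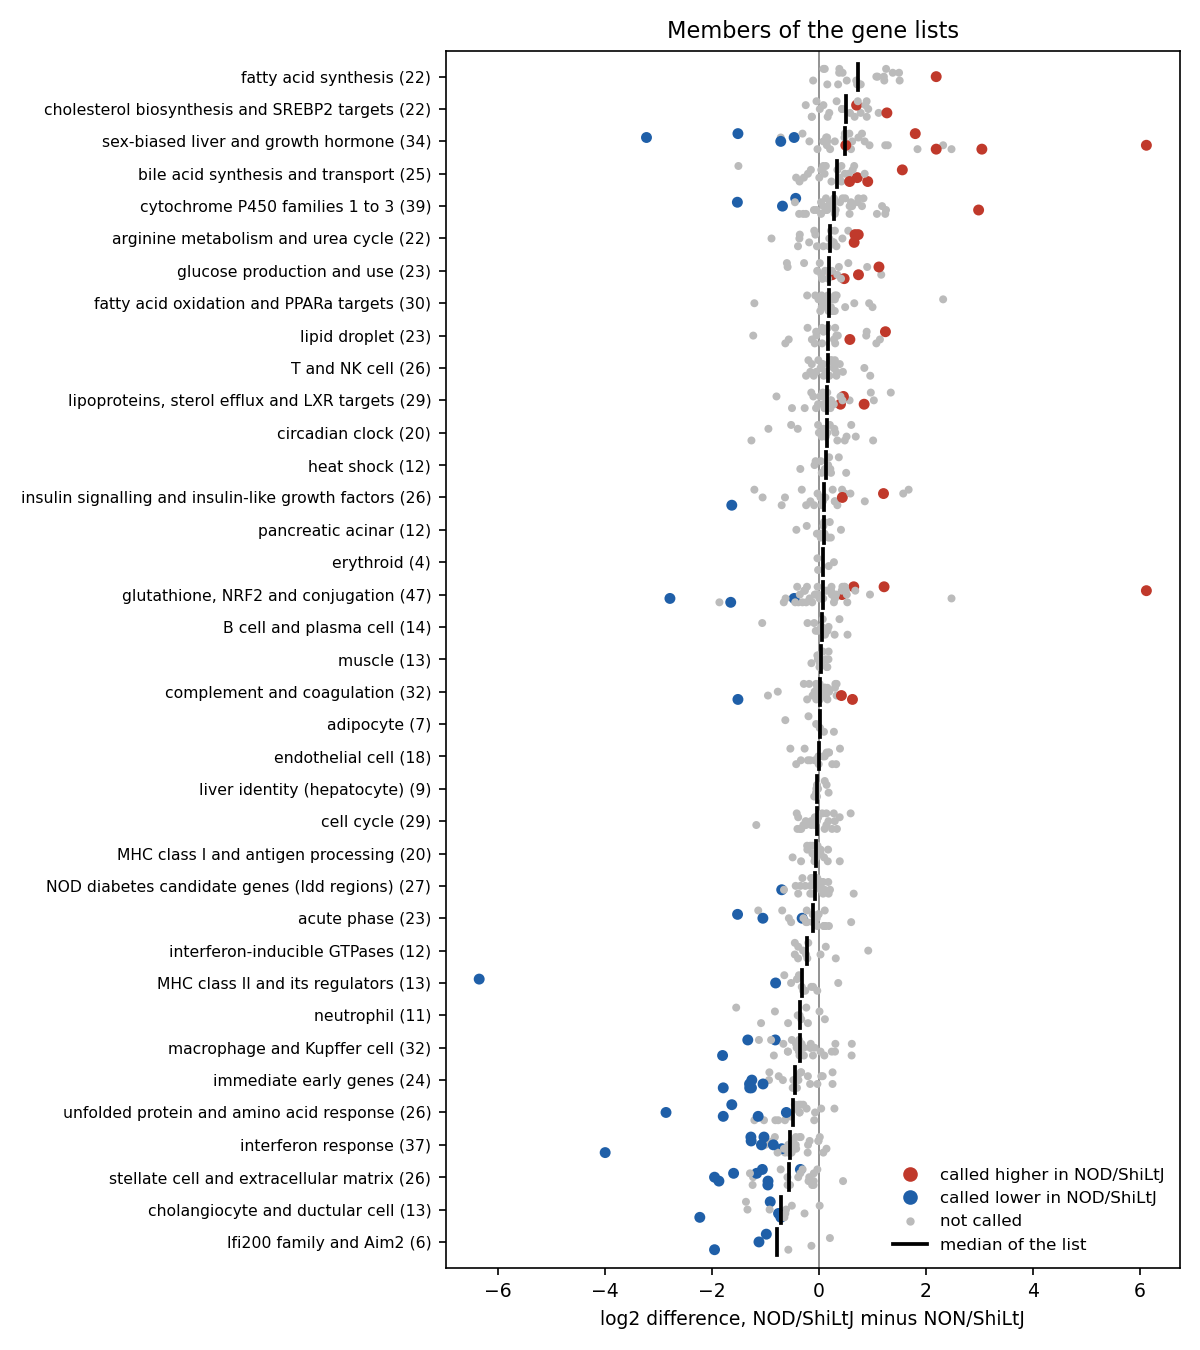
Log2 difference, NOD/ShiLtJ minus NON/ShiLtJ (horizontal axis), of each measured member of the 37 gene lists, with the number of measured members in brackets and the lists ordered by their median (black bars). Red and blue points passed the test and grey points did not. The medians run from -0.78 for the Ifi200 family and -0.71 for ductular genes to 0.74 for fatty acid synthesis, where 21 of 22 members lie above 0 and 1 is called.

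Of 26 measured genes of the unfolded protein and amino acid response, in which a cell that accumulates misfolded protein makes more chaperones and less new protein, 5 were called lower and 0 higher, 24 were below 0 and the median was -0.49. Derl3, a component of the machinery that returns misfolded protein to the cytosol, was at 3.85 and 4.39 in NOD/ShiLtJ and 6.90 and 7.05 in NON/ShiLtJ, a difference of -2.85 ± 0.64 (adjusted p = 0.00246). Sdf2l1, a chaperone cofactor, was at 8.45 and 8.34 against 9.60 and 9.45, and Pdia6, a disulfide isomerase, was at 10.08 and 10.11 against 10.82 and 10.58. Trib3, a pseudokinase that interferes with AKT, was at 4.91 and 6.27 against 7.02 and 7.41, so that the NOD/ShiLtJ mates lay further apart than mouse 2 lay from NON/ShiLtJ mouse 1. The transcription factor Atf3 was at 6.18 and 6.27 against 7.72 and 8.31 (adjusted p = 0.00666). The list had 0 calls without NOD/ShiLtJ mouse 1 and 0 without NON/ShiLtJ mouse 2, while its median stayed at -0.47 in both.

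Chaperone promoters are known for the ER stress element, searched for here as CCAAT, any 9 bases and CCACG, on either strand and within 250 bases upstream of the gene. It was found in 0.14% of the 13605 measured genes with a sequence, in 6 of 24 genes of the list and in 2 of the 5 called ones, Derl3 and Pdia6. Both lie on the plus strand of GRCm38.p6, Derl3 at chr10:75893222-75893280 and Pdia6 at chr12:17266471-17266529, and the element is in capitals, in Derl3 as read from the opposite strand.
Derl3: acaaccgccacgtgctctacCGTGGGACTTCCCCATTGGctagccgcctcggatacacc
Pdia6: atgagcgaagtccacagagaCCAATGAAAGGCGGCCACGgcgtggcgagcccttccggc
A match describes these letters in the reference strain and not the sequence of NOD/ShiLtJ or NON/ShiLtJ.

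Of 24 immediate early genes, which respond within minutes to growth factors and stress, 6 were called lower and 0 higher (median -0.44). Jun was at 6.92 and 6.87 in NOD/ShiLtJ and 8.05 and 8.33 in NON/ShiLtJ (adjusted p = 0.00359), Klf6 at 6.71 and 7.08 against 7.87 and 8.01, and Myc at 5.37 and 6.10 against 6.97 and 7.0. Atf3, Ier3 (-1.29) and Egr2 (-1.26) were the other calls. The count was 0 without NOD/ShiLtJ mouse 1 and without NON/ShiLtJ mouse 2, and 6 when either of the other mice was left out. Of 12 heat shock genes, 20 clock genes and 29 cell cycle genes, 0 were called, with medians of 0.14, 0.15 and -0.04, and 2 in each list had an unadjusted p under 0.05.

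Lipid metabolism was examined next. Of 22 measured genes of fatty acid synthesis, 21 were above 0 and the median was 0.74, the highest of the 37 lists. The 1 call was Elovl3, a fatty acid elongase, at 5.65 and 6.63 in NOD/ShiLtJ and 4.24 and 3.66 in NON/ShiLtJ (adjusted p = 0.0146). Its difference was between 1.70 and 2.68 with a mouse left out, and its call was lost without mouse 2 of either strain. The enzymes Fasn, Acly and Acacb illustrate the spread, and were chosen after their values were seen. Fasn, the fatty acid synthase, read 11.48 and 10.99 against 10.58 and 9.70 (adjusted p = 0.248), Acly, which supplies acetyl-CoA, read 11.66 and 10.92 against 10.47 and 9.68 (adjusted p = 0.138), and Acacb, an acetyl-CoA carboxylase, read 9.72 and 8.72 against 8.01 and 7.42 (adjusted p = 0.105). The groups did not overlap in these genes, although NOD/ShiLtJ mouse 2 and NON/ShiLtJ mouse 1 lay closer to each other than the NON/ShiLtJ mates did in Fasn and Acly. Of 22 genes of cholesterol biosynthesis, 2 were called higher and 0 lower (median 0.51). These were squalene synthase, Fdft1, at 9.34 and 8.93 against 8.52 and 8.34, and the sterol reductase Tm7sf2, at 10.39 and 9.35 against 8.60 and 8.59. Of the genes of cholesterol biosynthesis, 0 were called without NOD/ShiLtJ mouse 1 or either NON/ShiLtJ mouse. Without NOD/ShiLtJ mouse 1 the medians were 0.52 for fatty acid synthesis and 0.30 for cholesterol biosynthesis.

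Of 25 genes of bile acid synthesis and transport, 4 were called higher and 0 lower, with a median of 0.35. Cyp8b1, the enzyme that sets the proportion of cholic acid, was at 10.18 and 9.89 in NOD/ShiLtJ and 8.67 and 8.28 in NON/ShiLtJ, a difference of 1.56 ± 0.38 (adjusted p = 0.00735). Akr1d1, which reduces the sterol ring, was at 9.94 and 9.76 against 9.02 and 8.86, and Slc27a5, which activates bile acids for conjugation, was at 12.02 and 12.10 against 11.44 and 11.53. Klb, the co-receptor for FGF15, was at 8.86 and 8.45 against 8.24 and 7.65, and its call was lost on the mean of its probe sets (0.31). Without NOD/ShiLtJ mouse 1 or NON/ShiLtJ mouse 2, 0 members were called, and the medians were 0.33 and 0.18. Of 29 genes of lipoproteins and sterol efflux, 3 were higher (median 0.16): Apoa5 (0.46), Apoc2 (0.40) and the sterol exporter Abcg5 (0.85). Each of the 3 lost its call whichever mouse was left out; without NOD/ShiLtJ mouse 2 the list had 1 member higher and 2 lower, and without either NON/ShiLtJ mouse it had 0 calls. Of 23 lipid droplet genes, 2 were higher (median 0.17), namely G0s2, an inhibitor of the lipase ATGL, at 11.21 and 10.54 against 9.60 and 9.66, and seipin, Bscl2 (0.58), and 0 were called without NOD/ShiLtJ mouse 1 (median 0.07) or NON/ShiLtJ mouse 2. Of 30 genes of fatty acid oxidation, 0 were called and 26 were above 0 (median 0.18), and 12 had an unadjusted p under 0.05. The acyl-CoA thioesterase Acot3 read 10.45 and 9.13 against 7.84 and 7.09 (adjusted p = 0.0989), and the hormone Fgf21 read 4.78 and 4.76 against 5.93 and 6.02 (adjusted p = 0.183).

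Genes of glucose metabolism and insulin action were of interest because of the diabetes of inbred NOD mice. The mice here were F1 hybrids, and the labels do not say whether any was diabetic. Of 23 genes of glucose production and use, 4 were called higher in NOD/ShiLtJ and 0 lower, with a median of 0.20. The gluconeogenic pyruvate carboxylase, Pcx, was at 10.66 and 10.88 against 10.24 and 10.35 (adjusted p = 0.0055), and Fbp1 was at 12.83 and 12.60 against 12.49 and 12.44. Ppp1r3c, which targets a phosphatase to glycogen, was at 10.19 and 9.81 against 9.01 and 8.74 (adjusted p = 0.00724), and the pyruvate dehydrogenase kinase Pdk2 was at 6.28 and 5.89 against 5.23 and 5.46. Without NOD/ShiLtJ mouse 1 or either NON/ShiLtJ mouse, 1 member of the list was called. Of 26 genes of insulin signalling and insulin-like growth factors, the insulin receptor Insr (0.44) and the binding protein Igfbp2 were higher and Trib3 was lower, with a median of 0.10. Igfbp2 was at 10.86 and 10.99 against 9.55 and 9.88. Insr and Igfbp2 lost their calls whichever mouse was left out, Insr was at 0.12 and not called on the mean of its probe sets, and the list had 0 calls without NOD/ShiLtJ mouse 1 or NON/ShiLtJ mouse 2. Of 22 genes of arginine metabolism and the urea cycle, Asl (0.74), Slc25a13 (0.66) and Gamt (0.68) were higher (median 0.21), and 0 were called without NOD/ShiLtJ mouse 1 or NON/ShiLtJ mouse 2. Of 32 complement and coagulation genes, the clotting factors F7 (0.63) and F12 (0.42) were higher and C6 (-1.51) was lower, with a median of 0.03. F7 lost its call whichever mouse was left out, and the list had 0 calls without NOD/ShiLtJ mouse 1 or NON/ShiLtJ mouse 1 and 1 without NON/ShiLtJ mouse 2.

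Enzymes of xenobiotic metabolism differed in both directions. Of 39 members of cytochrome P450 families 1 to 3 and their regulators, 1 was higher and 3 were lower, with a median of 0.28. Cyp2b10, the classical target of the receptor CAR, was at 6.32 and 6.54 in NOD/ShiLtJ and 3.14 and 3.75 in NON/ShiLtJ, a difference of 2.98 ± 0.65 (adjusted p = 0.00178). All 3 of its probe sets were called, and the adjusted p was at most 0.0504 with a mouse left out. Cyp1b1 (-1.52), Cyp3a13 (-0.68) and Cyp2a12 (-0.43) were lower, and none of the 3 was called without NOD/ShiLtJ mouse 1. On the mean of its probe sets Cyp1b1 was at -0.46 and not called. Of 47 genes of glutathione, NRF2 and conjugation, 4 were higher and 3 lower (median 0.08). Beside Sult3a1, the transferases Gstt3 (1.22), Gstm7 (0.65) and Gstk1 (0.43) were higher. Cbr3, a carbonyl reductase, was lower, at 5.24 and 6.93 against 8.65 and 9.09, as were sulfiredoxin, Srxn1, at 6.84 and 7.90 against 8.92 and 9.12, and Gstp1 (-0.46). The 7 calls of this list became 1 without NOD/ShiLtJ mouse 1, 2 without NON/ShiLtJ mouse 1 and 1 without NON/ShiLtJ mouse 2. The core of the antioxidant response element, through which NRF2 acts, was searched for as TGAC, any 3 bases and GC on either strand of the same windows. It was held by 7 of 41 list genes, by 1 of the 7 called (Gstm7) and by 13.4% of the measured genes.

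Sex-biased genes of the liver, which follow the pattern of growth hormone release, were called in both directions. Of 34 measured members, 5 were called higher and 4 lower in NOD/ShiLtJ. The differences leaned upward, with 26 above 0, 8 below 0 and a median of 0.49. Higher were Sult3a1 and Hao2, which are typical of females, and Hsd3b5, Elovl3 and Selenbp2, which are typical of males. Hao2, a peroxisomal hydroxyacid oxidase, was at 9.95 and 9.71 against 7.75 and 8.31 (adjusted p = 0.0368), and Selenbp2 differed by 0.50. Hao2 lost its call whichever mouse was left out, with a difference between 1.52 and 2.08. Lower were Cyp4a12a, C6, Gstp1 and Susd4 (-0.71). Cyp4a12a, a male-typical hydroxylase of arachidonic acid, was at 3.17 and 4.17 in NOD/ShiLtJ and 7.60 and 6.19 in NON/ShiLtJ, a difference of -3.22 ± 0.82 (adjusted p = 0.0114). With a mouse left out the Cyp4a12a difference was between -3.92 and -2.52, and the call was lost without mouse 1 of either strain. Of the called members, only Sult3a1 and Hsd3b5 kept their calls with any mouse left out. Leaving out a mouse left between 3 and 6 members called.

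The position of each strain among the classical inbred strains was then examined by setting each against the average of the 25 others with 2 or more mice, which the comparisons share. NOD/ShiLtJ differed from them in 2539 genes, 14.9% of those tested, of which 1062 were higher and 1477 lower. NON/ShiLtJ differed in 86 genes, or 0.503%, of which 36 were higher and 50 lower. In probe sets the counts were 4757 and 193. The first was 385 without NOD/ShiLtJ mouse 1 and 4230 without mouse 2, and the second was 51 without NON/ShiLtJ mouse 1 and 101 without mouse 2.

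Gene by gene, the strain further from the average of the others varied. H2-Ea was below that average in NOD/ShiLtJ (-3.34) and above it in NON/ShiLtJ (3.01), and Ifi44l likewise (-2.34 and 1.65). Over the other strains the means ran from 2.80 to 10.80 for H2-Ea and from 2.75 to 8.17 for Ifi44l. Gstp3 was above the average in NON/ShiLtJ (3.09, adjusted p = 2.1e-30), and the NOD/ShiLtJ value was 0.04 from it (adjusted p = 0.93). The highest other strain mean of Gstp3 was 11.48. For Gdpd3 the values were -1.66 in NOD/ShiLtJ and 3.27 in NON/ShiLtJ, and the other strain means ran from 3.51 to 9.16. Both strains thus lay within the range of the others in H2-Ea, Ifi44l and Gdpd3. For Abhd1 the values were 1.35 and -2.29. Hyi (0.99 and -0.98) and Psen2 (0.57 and -0.59) departed to nearly equal extents on either side. In Hsd3b5 (2.99 and -0.05), Cyp46a1 (3.47 and -0.22), Cyp2b10 (2.51 and -0.47) and Sult3a1 (4.93 and -1.19) the NOD/ShiLtJ value passed the test and the NON/ShiLtJ value did not. Akr1e1 was lower than the average of the others in both, with -2.42 in NOD/ShiLtJ and -0.46 in NON/ShiLtJ. For Cyp4a12a the NON/ShiLtJ value of 2.46 passed the test (adjusted p = 0.02), and the NOD/ShiLtJ value was -0.76 (adjusted p = 0.49). That NON/ShiLtJ call was lost without NON/ShiLtJ mouse 1, which had the higher signal of the mates.

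Of all genes, 8.64% were called lower and 6.21% higher in NOD/ShiLtJ than in the other strains. In NOD/ShiLtJ, 24 of 37 interferon-response genes, 19 of 32 macrophage genes, 15 of 26 matrix genes, 12 of 24 immediate early genes and 7 of 13 ductular genes were called lower than in the other strains. In the same strain 13 of 22 genes of fatty acid synthesis, 8 of 22 of cholesterol biosynthesis and 14 of 30 of fatty acid oxidation were called higher. Without NOD/ShiLtJ mouse 1 the counts were 11 for interferon, 2 for macrophage, 0 for matrix, 1 for immediate early and 0 for ductular genes, and 1 for fatty acid synthesis, 0 for cholesterol biosynthesis and 0 for fatty acid oxidation, while 142 genes in all were lower and 95 higher. Without NOD/ShiLtJ mouse 2 the interferon count was 6 and that of matrix genes 12. In NON/ShiLtJ, 1 interferon gene was called higher, and 0 genes of these other lists were called in either direction. The list mean of fatty acid synthesis was 10.12 and 9.68 in NOD/ShiLtJ and 9.28 and 8.92 in NON/ShiLtJ, where the other strains spanned 8.49 to 9.80. That of the interferon response was 6.65 and 6.35 against 7.04 and 7.24, within the span of 6.33 to 7.72, and that of ductular genes was 5.32 and 5.21 against 6.00 and 6.20, with both NOD/ShiLtJ mice below the lowest other strain mean of 5.36.

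**Figure D4:**
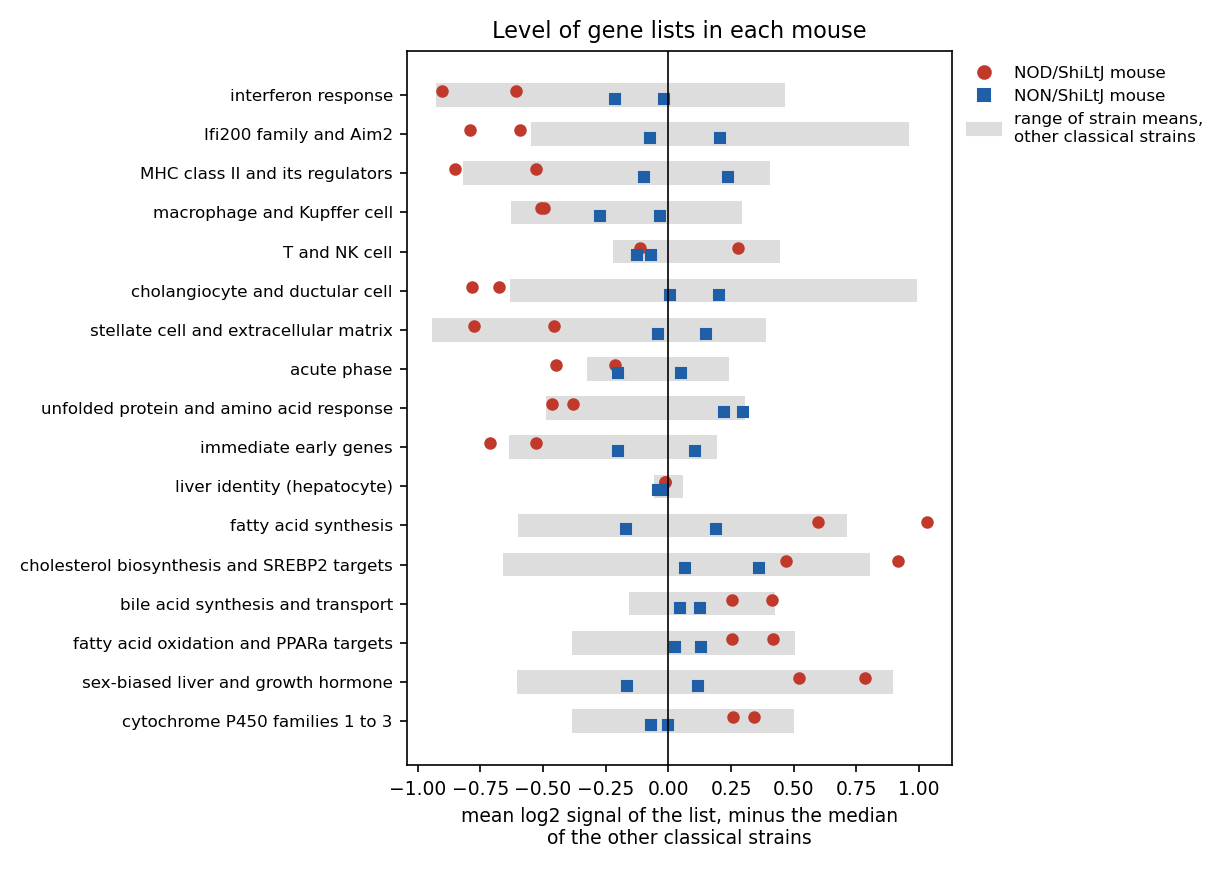
Mean log2 signal of selected gene lists in each NOD/ShiLtJ mouse (red circles) and NON/ShiLtJ mouse (blue squares), minus the median of the strain means of the 25 other classical inbred strains (horizontal axis). Grey bars span those strain means. The squares lie near 0 in most lists, the circles lie to the left in the interferon, ductular, matrix and stress lists and to the right in the lists of lipid metabolism, and all 4 mice coincide in the hepatocyte markers.

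Among the 153 pairs that can be formed from the 18 classical strains with exactly 2 mice, the 1657 probe sets called between NOD/ShiLtJ and NON/ShiLtJ ranked 60, in a range of 114 to 8458 and with a median of 1010. The 17 pairs that include NOD/ShiLtJ had a median of 2291 and ran from 732, against C57BL/6J, to 6743, against C57BLKS/J, and NON/ShiLtJ ranked 14 among them. The pairs that include NON/ShiLtJ had a median of 414. These pairs share strains, so that their counts are a description.

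Called genes were found on every chromosome that was examined, from 3.86% of genes on X to 8.79% on chromosome 10, by RefSeq gene order in GRCm38.p6. The windows of 25 neighbouring measured genes with the most calls held 7 each. On chromosome 7, between Ubqln5 and Rrp8, the calls lay in a cluster of TRIM genes, a family of ubiquitin ligases that includes restriction factors against viruses. Trim6 was higher in NOD/ShiLtJ (1.38, adjusted p = 2.65e-06), while Trim12c (-1.19, adjusted p = 1.14e-05), Trim30d (-1.02), Trim30a (-0.78), Trim12a (-0.72), Trim5 (-0.71) and the neighbouring Rrp8 (-0.88) were lower. Trim6 and Trim12c were also called with each mouse left out. On chromosome 11, between Cd300lb and Mif4gd, Trim80 (1.42), Mif4gd (0.43) and Nat9 (0.40) were higher and Jpt1 (-0.80), Cd300c2 (-0.73), Gga3 (-0.61) and Nt5c (-0.44) were lower. None of these 7 on chromosome 11 kept its call with each mouse left out, and among the mice left out in turn, Trim80 lost its call without NOD/ShiLtJ mouse 1. Trim12a was at -0.47 on the mean of its probe sets and still called. Related neighbours can share probe signal, so single TRIM genes are uncertain, and a change in RNA level cannot be told apart here from a strain variant that alters binding to a probe.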

How the data were processed

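RNA of 220 livers, from female mice of 96 strains, was hybridised to HT MG-430 PM arrays (Affymetrix), one mouse each. The authors deposited log2 values of every probe set. The submitters' processing notes list GCOS and RMA (robust multi-array average), a method that subtracts background, quantile-normalizes the arrays and combines the probes of a set. For versions and batch correction, the sources here name none. The 2 arrays per strain limit the precision. The platform annotation gave 1 symbol to 28898 of 45037 probe sets. Each of 17097 genes was represented by its probe set of highest mean signal.

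Strain means were fitted with limma 3.58.1 in R 4.3.3 over all strains with replicate mice (87 strains, 124 residual degrees of freedom), with eBayes moderation, two-sided tests and Benjamini-Hochberg adjustment over 45037 probe sets. The procedure was tested on simulated data. Replicate numbers followed accession order and pair nothing. The strain pair and the 37 gene lists were chosen with earlier results of these data known. Named genes were the 20 largest rises and falls among called genes whose mice did not overlap, the 10 smallest adjusted p, the Idd candidates, up to 6 called members of each list (2 where none was called) and the genes of 2 windows of neighbours. Of 10 adipocyte markers, 7 were measured and 0 called (median 0.02). Medians were 0.09 for 12 pancreatic acinar, 0.05 for 13 muscle and 0.08 for 4 erythroid markers. Alternatives were leaving out each mouse, other sets of strains, renormalization, filters, eBayes settings, array weights, adjustment over genes and thresholds.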

Additional observations from a re-analysis of the deposited data

How the results depend on the processing

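With 1 mouse left out, between 208 and 2202 probe sets were called between NOD/ShiLtJ and NON/ShiLtJ, against 1657 with all mice. For NOD/ShiLtJ against the other classical strains the range was 385 to 4230, and for NON/ShiLtJ 51 to 101. The fit of the 4 mice alone called 354, array weights 1051, an adjusted p under 0.01 called 549, and a required difference of 1 or more left 430. Classical strains alone gave 1645, quantile normalization once more 1661, centring on array medians 1657, filters on low signal 2112 and 2220, eBayes with trend and robust settings 1642, and adjustment over 1 probe set per gene 1227. Of 137 genes followed through these settings, 122 were called with all mice, and most named genes without a call were not followed. Direction changed in 0 of the 137 in any of these settings. Where the mice of the strains do not overlap, leaving out 1 mouse cannot change it. The call was lost by 97 without NOD/ShiLtJ mouse 1, 100 without NON/ShiLtJ mouse 2, 65 without NON/ShiLtJ mouse 1, 28 without NOD/ShiLtJ mouse 2, 73 in the fit of the 4 mice alone and 35 with array weights. Apart from having fewer mice, the cause was not tested. No paired analysis was possible because the replicate numbers were given in accession order and pair no mice.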
